A study of Drosophila melanogaster with 4 samples.

Results

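The telomere-proximal RPD3 clusters are the enriched ChIP-seq regions that lie within the last 1.5 Mb of 4 chromosome arms of Drosophila melanogaster. They were taken from the authors' combined list of enriched regions. A cluster was a member if it was narrower than 6000 bp and its midpoint fell in the 1.5 Mb next to the tip, which is the end of the assembled arm away from the centromere. On X, 2L and 3L the tip is at base 1, and on 3R the window ran from 26405054 to the arm end at 27905053, in FlyBase release 5 coordinates counted from 1. The rule found 319 members among the 7386 enriched clusters of the combined list. They comprised 78 clusters on X, 80 on 2L, 100 on 3L and 61 on 3R. The rest of the same 4 arms held 4868 clusters under the same width limit. Arm 2R was not analysed here.

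The study mapped RPD3 in nuclei from heads of adult flies of the wild-type Oregon-R strain, raised in population cages on a 22-day adult cycle, with antibody Q3451. The stage is given as Mixed Adult, and a head sample pools many animals and cell types. There were 2 RPD3 ChIP samples, replicates 1 and 2, and 2 inputs, each tied by the labels to 1 ChIP sample. The labels do not say whether the replicates came from separate fly populations, so the spread between them may be technical. No list was given for an input, and the number of reads behind each list is unknown.

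RPD3 is a class I histone deacetylase, the fly orthologue of human HDAC1. It removes acetyl groups from histone tails as the catalytic subunit of corepressor complexes built on Sin3, CoREST and the nucleosome remodeller Mi-2. Fly telomeres are not made by telomerase. They are maintained by the retrotransposons HeT-A, TART and TAHRE, and inward of these lie telomere-associated satellite repeats, where inserted reporter genes are often silenced. The gene-rich euchromatin of each arm follows.

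Each cluster carries a start, an end and the authors' score, which was read as the log2 enrichment of ChIP over input and compared only within a list. A cluster that overlapped clusters of both replicate lists by at least 1 bp was called recurrent. Values for the replicates come from their own lists under the same window and width limit, with 228 such clusters in replicate 1 and 272 in replicate 2. Clusters are not replicates of a condition. With 2 samples the smallest two-sided p of an exact permutation test would be 0.5, so no test is given and the differences below are descriptions set against the spread between the 2 samples.

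The most distal RPD3 clusters lay within 20 kb of the assembled end on X, 2L and 3R, and more than 50 kb from it on 3L. The nearest to a tip was on X, 4586 to 6588, which began 4585 bp from the end. On 3R the first cluster, 27892592 to 27895320, ended 9733 bp from the tip, and on 2L the first, 17386 to 19786, began 17385 bp from it. On 3L the first, 51044 to 52132, began 51043 bp from the tip. These 4 clusters had combined scores of 0.53 on X, 0.86 on 3R, 0.64 on 2L and 0.94 on 3L.

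The first clusters of 2L and 3R were placed almost alike in both replicates, and those of X and 3L were not. On 2L the first replicate 1 cluster began 17529 bp from the tip and the first replicate 2 cluster 17375 bp from it. On 3R these distances were 9701 and 9897 bp. The first X cluster of replicate 1, 5167 to 7174, and that of replicate 2, 7696 to 10920, did not overlap. On 3L the first combined cluster overlapped neither replicate, and the replicates' own first clusters began 128394 and 121899 bp from the tip.

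The outermost part of X held a compact group of clusters, singled out after their values were seen. Over the rest of X, 57.7% of clusters recurred. All 9 X members of the first 100 kb lay within the distal 39334 bp. The 6 most distal of them ended by 19370, and none of the 6 overlapped both replicates: 1 overlapped replicate 1 alone, 2 overlapped replicate 2 alone and 3 overlapped neither. The 3 that followed, which began at 22878, 33268 and 37094, were found in both replicates with combined scores of 0.48, 0.48 and 0.54. Scores in the group of 9 ranged up to 0.76, the score of 17858 to 19370, which was in neither replicate.

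The first 100 kb of 3L contrasted with the next. It held 3 combined clusters, all between 51 and 56 kb from the tip, and no cluster of either replicate. Those of 1089 and 1051 bp were narrower than any cluster of the replicate lists (1301 bp or more). Over the rest of 3L, 11.7% of 100 kb steps held no cluster under 6000 bp in replicate 1 and 8.26% in replicate 2. The next 100 kb step held 12 combined clusters, 7 of them recurrent, with 7 clusters in replicate 1 and 9 in replicate 2. The first 100 kb of 2L had 7 members, 4 of them recurrent, and that of 3R had 4 members, 3 of them recurrent.

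**Figure D1:**
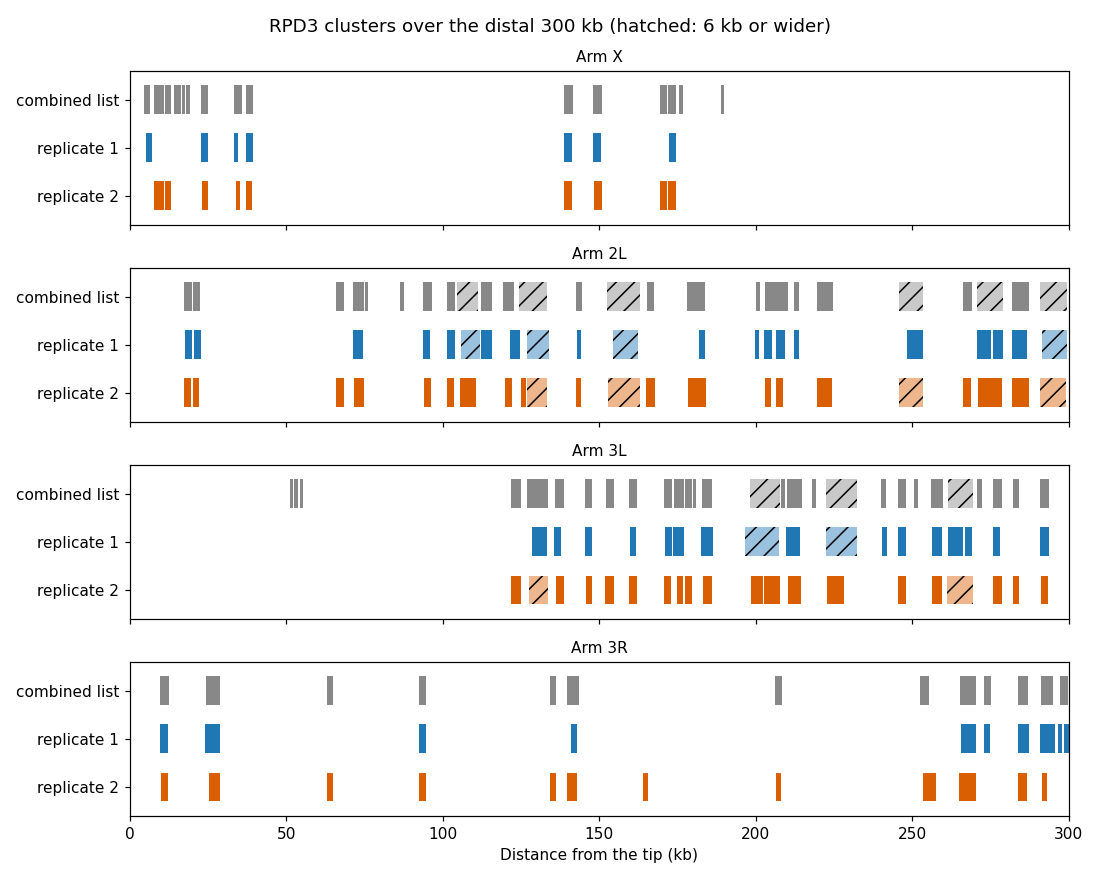
Position of enriched clusters over the distal 300 kb of each arm, with distance from the tip in kb on the horizontal axis and 1 row each for the combined list, replicate 1 and replicate 2. Bars span clusters, and hatched bars are 6 kb or wider. On 3L neither replicate has a bar in the first 100 kb, and on X no list has one beyond 190 kb.

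In the gene table used for names, which is of release 6 of the genome and was read for gene order only, the outermost protein-coding gene of 2L was l(2)gl, a tumour suppressor that sets cell polarity. On 3R the outermost was Map205, which encodes a microtubule-associated protein, followed by mod (modulo) and krz, the fly non-visual beta-arrestin. On 3L mthl8, a methuselah-like receptor gene, came first, and Lsp1gamma, which encodes a larval serum protein, was the third. The clusters are on release 5 and were not assigned to these genes or to any other.

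Cluster density near the tip was lower than over the rest of the arm on 3R. On X and 2L the mean ratio of window to rest exceeded 1 by less than its SD over the 2 replicates. On 3L the density near the tip was higher, by a margin that depended on the stretch counted as the rest. The 3R window had 30.0 clusters per Mb in replicate 1 and 34.0 in replicate 2, against 42.5 and 48.6 over the rest of 3R. The window was thus below the rest of its arm in both samples, and the 2 pairs of values did not overlap. The ratio was 0.703 ± 0.00527 (SD, n = 2), with 0.707 in replicate 1 and 0.699 in replicate 2, and 0.73 in the combined list.

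On 3L the window had 42.7 clusters per Mb in replicate 1 and 50.7 in replicate 2, against 39.1 and 43.8 over the rest of the arm. The ratio was above 1 in each sample, 1.12 ± 0.0475 (SD, n = 2), and 1.26 in the combined list. The density of the window in replicate 1 was, however, below that of the rest in replicate 2. Leaving the 2 Mb nearest the centromere out of the rest gave 1.02 in replicate 1 and 1.08 in replicate 2. The 2L window had 38.7 and 48.7 clusters per Mb, against 38.4 and 42.5 over the rest of 2L, a ratio of 1.08 ± 0.097 (SD, n = 2). On X the values were 40.7 and 48 per Mb in the window, against 40.7 and 42 over the rest, a ratio of 1.07 ± 0.102 (SD, n = 2). The excess over 1 on 2L and X was smaller than the SD. The mean of the 4 arms was 0.993 ± 0.0602 (SD, n = 2).

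**Figure D2:**
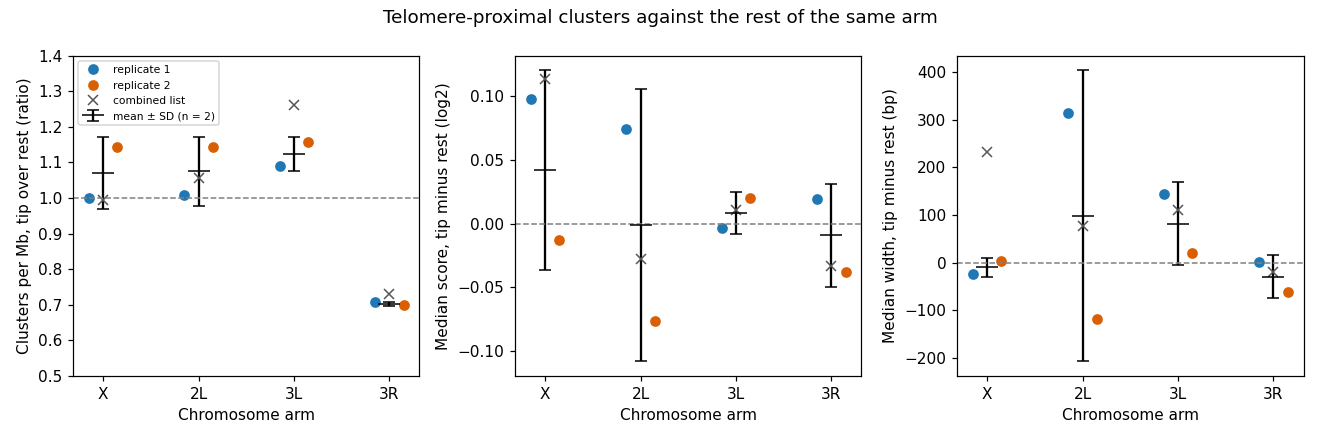
Telomere-proximal clusters against the rest of the same arm for X, 2L, 3L and 3R. The vertical axes show the ratio of clusters per Mb (tip over rest), the difference in median score (tip minus rest, log2) and the difference in median width (tip minus rest, bp). Points are replicates, crosses the combined list, and bars the mean ± SD (n = 2). Only the 3R density ratio, 0.703, lies far from the dashed line in both replicates, while most score and width differences change sign between replicates.

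Set beside the other full 1.5 Mb stretches of the same arm, counted from the tip inward, the 3R window was among the sparsest. Its 61 combined clusters were exceeded in 16 of the 17 others, whose median was 87 and highest 99. Its 45 clusters in replicate 1 and 51 in replicate 2 were each exceeded in 15 of 17. The adjoining stretch of 3R held 98 combined clusters. The 3L window, with 100 combined clusters, was exceeded in 3 of 15 others in the combined list. It was exceeded in 7 in replicate 1 and 5 in replicate 2. The median of those others was 82 in the combined list and 64 in each replicate. The window itself held 64 clusters in replicate 1 and 76 in replicate 2. The X window, with 78, was exceeded in 7 of 13 others and the 2L window, with 80, in 7 of 14.

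Within the window the arms differed in where their clusters lay. The split at 500 kb was chosen after the profile had been seen, and it is given as a description. On 3R the sparse part was the inner 1 Mb, with 26 clusters per Mb in each replicate, against 42.5 and 48.6 over the rest of the arm. The distal 500 kb of 3R had 38 per Mb in replicate 1 and 50 in replicate 2. On X the sparse part was instead the distal 500 kb, with 26 and 32 per Mb, against 40.7 and 42 over the rest, and the inner 1 Mb had 48 and 56. The distal 500 kb was denser than the rest of the arm on 2L, at 52 and 58 per Mb against 38.4 and 42.5, and on 3L, at 50 and 54 against 39.1 and 43.8.

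In 100 kb steps the members ranged from 0 to 17 per step. The densest was on 2L from 1100 to 1200 kb, with 17 members between 1100820 and 1187290. Of these, 12 were recurrent, their scores ran from 0.22 to 1.68 with a median of 0.64, and together they covered 51.9 kb. None of the 215 full steps over the rest of 2L held as many in the combined list, where the highest was 15. The step held 16 clusters in replicate 2, above the highest of 14 over the rest of 2L, and 13 in replicate 1, below the highest of 14. The step before it held 5 members, against a median of 4 per step over the rest of 2L. The 3 steps after it were sparse, with 2, 1 and 2 members.

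The other arms had no step as dense. On 3L the most members in a step were 12, from 100 to 200 kb and from 600 to 700 kb, and the fewest 2, from 400 to 500 kb. On 3R the most were 9, from 400 to 500 kb and from 600 to 700 kb, and the fewest 1, from 700 to 800 kb and from 800 to 900 kb. On X the most were 9, in the first 100 kb and from 1200 to 1300 kb. On 2L the steps from 600 to 700 kb and from 1300 to 1400 kb had 1 member each.

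The X step from 200 to 300 kb held none, and it was empty in both replicates too. It was part of a stretch from 189935 to 379679, or 189.7 kb, without a member. A single cluster of 6 kb or more, 369290 to 377224, lay inside it, so 179.4 kb held no cluster of any width in the combined list. In replicates 1 and 2 the stretches without a cluster of any width ran from 174523 to 369344 and from 174455 to 369353, and agreed to within 100 bp at either end. Longer spaces occurred elsewhere on X. Over its rest, 3 spaces between neighbours were longer than 189.7 kb in the combined list, and the longest was 255.9 kb. The achaete-scute complex of proneural genes is known to lie near the X tip. Its release 5 position was not used here, so no cluster or empty stretch was assigned to it.

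Other long stretches without members were shorter. On 2L the longest ran from 603915 to 739201 (135.3 kb), starting next to the best-scoring recurrent member of that arm, and replicate 2 had nearly the same one, from 603906 to 739221. The longest in replicate 1 was another, from 1257474 to 1419373 (161.9 kb). On 3R the longest ran from 27023703 to 27135369 (111.7 kb) and held 2 wider clusters. On 3L it ran from 1371549 to 1462877 (91.3 kb). The median space between neighbouring members was 9417 bp on 3R, against 6337 bp over the rest of that arm. It was 5615 bp on X, 5281 bp on 2L and 6095 bp on 3L, against 6037, 6623 and 6959 bp over the rest of those arms.

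The replicates counted similar numbers of clusters per step. Over the 60 steps of the 4 windows, the Spearman rank correlation between their counts was 0.799. This is a description across neighbouring steps of the same 2 lists. The counts were equal in 17 steps and within 1 of each other in 39, and the largest difference was 6. The first 100 kb of 3L and the X step from 200 to 300 kb were empty in both.

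**Figure D3:**
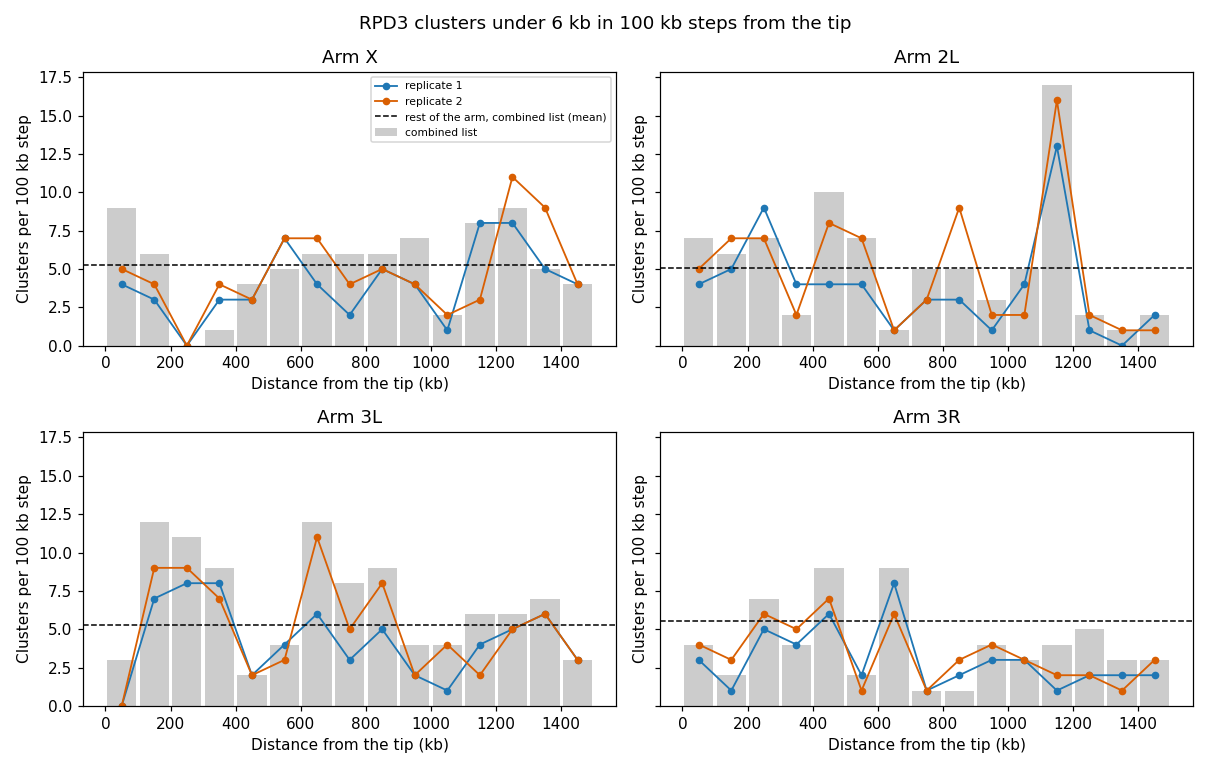
Clusters under 6 kb per 100 kb step (vertical axis) against distance from the tip in kb for each arm. Grey bars are the combined list, lines the replicates, and the dashed line the mean of the rest of the arm in the combined list. The 2L step from 1100 to 1200 kb rises to 17, the X step from 200 to 300 kb is 0, and on 3R steps beyond 700 kb do not pass the dashed line.

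Scores near the tips did not stand apart from those over the rest of the arms. The median score of the members was 0.53 in the combined list, against 0.54 over the rest of the 4 arms. Per replicate the mean of the 4 within-arm differences was 0.05 in replicate 1 and -0.03 in replicate 2, or 0.01 ± 0.05 (SD, n = 2). On X the window median was 0.96 in replicate 1 and 0.92 in replicate 2, against 0.87 and 0.93 over the rest of X. On 2L it was 0.78 and 0.72, against 0.71 and 0.80, on 3L 0.71 and 0.82, against 0.71 and 0.80, and on 3R 0.76 and 0.79, against 0.74 and 0.82. No arm kept the same sign in both replicates.

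High-scoring clusters were found in all 4 windows. The best-scoring 10% of the combined list began at a score of 1.28. It included 21 of the 319 members (6.58%), against 430 of 4868 (8.83%) over the rest of the arms. By arm these were 7 members on X (8.97%, against 10.9% over the rest of the arm), 8 on 2L (10%, against 7.73%), 4 on 3L (4%, against 7.97%) and 2 on 3R (3.28%, against 8.84%). In replicate 1 the corresponding shares were 9.65% of the clusters in the windows against 9.92% over the rest, and in replicate 2 8.46% against 9.54%.

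Scores rose with width among the members, as they did elsewhere. The Spearman rank correlation of score and width was 0.709 over the 319 members and 0.73 over the rest of the arms. These are descriptions across clusters that share their libraries. On X the median combined score was 0.53 in the distal 500 kb (20 members), 0.78 from 500 to 1000 kb (30 members) and 0.78 from 1000 to 1500 kb (28 members). In the same order it was 0.51, 0.59 and 0.48 on 2L, 0.52, 0.45 and 0.50 on 3L, and 0.56, 0.49 and 0.46 on 3R. The arms did not share a direction from the tip inward.

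The 3 best-scoring recurrent members of each arm were picked by their combined score, and the combined list draws on both replicates, so their replicate ranks are a description. The highest lay on 2L, 601304 to 603914, with a combined score of 2.16. It ranked 13 in replicate 1 (score 2.01) and 17 in replicate 2 (score 2.32). The next 2L members were 1106688 to 1109672 (score 1.68), which lies in the dense 2L step, and 469104 to 474310 (score 1.62). The first of these ranked 1044 in replicate 1 and 55 in replicate 2, so the replicates placed it far apart.

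On X the best-scoring recurrent member was 801612 to 804834, with a combined score of 1.88, ranked 147 in replicate 1 and 46 in replicate 2. It was followed by 547340 to 552428 (score 1.62) and 1405882 to 1409050 (score 1.51). The last ranked 10 in replicate 1 (score 2.12) and 1463 in replicate 2 (score 1.23).

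On 3L the 3 sites were 1033454 to 1036292 (score 1.67), 1340462 to 1343756 (score 1.54) and 1487728 to 1490842 (score 1.52). The first of them ranked 71 in replicate 1 and 324 in replicate 2. On 3R they were 26440690 to 26444426 (score 1.51), 26712788 to 26716182 (score 1.36) and 27600308 to 27605012 (score 1.24). The best of 3R ranked 289 in the combined list, 1891 in replicate 1 and 146 in replicate 2. The first and second of these 3R sites lay 1461 and 1189 kb from the tip, in the sparse inner part of the window.

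One high score had no support in either replicate list. The narrow 2L cluster 770480 to 771486 (1007 bp) had a combined score of 2.19, rank 30 of that list and the highest of all members, yet overlapped no cluster of replicate 1 or 2. It was narrower than 1301 bp, the narrowest cluster of either replicate list. The first 3L cluster, 51044 to 52132 (1089 bp), and the X clusters 17858 to 19370 and 14120 to 16354 were the other members with a score above the combined-list median of 0.59 and no overlap in either replicate. All 3 lay in the first 100 kb of their arm. Of the 55 members in neither replicate, 4 scored above 0.59, against 27 of 779 such clusters over the rest of the arms. Over the rest, such clusters scored up to 3.36 on 3L, 3.24 on 3R, 2.95 on X and 0.9998 on 2L.

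**Figure D4:**
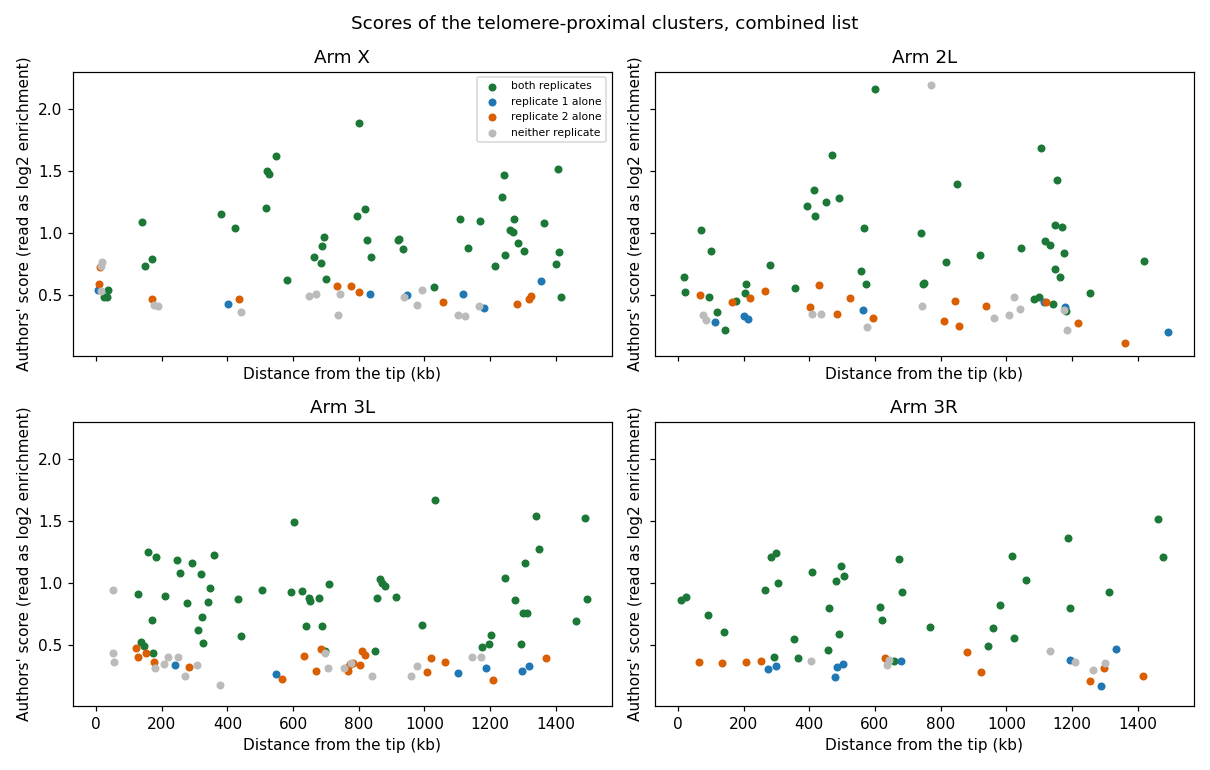
Authors' score (read as log2 enrichment, vertical axis) of each of the 319 members in the combined list against distance from the tip in kb. Colour shows in which replicate lists the member had an overlapping cluster. Most members above 0.59 are found in both replicates, and the 2L member at 2.19 in neither.

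Widths near the tips were like those of the rest of the arms. The same width limit was set on both sides, although it left out a larger share of the clusters in the windows than over the rest. The median member was 2459 bp wide in the combined list, against 2375 bp over the rest of the 4 arms. The mean of the within-arm differences was 109.2 bp in replicate 1 and -38.8 bp in replicate 2 under the limit, and 190.6 and -15.2 bp without it. On 2L the window median was 2687.5 bp in replicate 1 and 2330 bp in replicate 2, against 2372.5 and 2448 bp over the rest, so the sign turned between the replicates. Only 3L had a wider median in the window in both, at 2544.5 and 2447 bp, against 2400.5 and 2427 bp.

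The width limit left out 37 of the 356 clusters in the windows, with 10 on X, 13 on 2L, 7 on 3L and 7 on 3R. Each of the 37 overlapped both replicates, as did 414 of the 416 such clusters over the rest of the arms. Clusters of 6 kb or more made up 10.4% of those in the windows, against 7.87% over the rest of the arms in the combined list. The shares were 10.6% against 8.19% in replicate 1 and 6.85% against 4.6% in replicate 2. The 2L window had the highest share, 14.7% against 7.92% in replicate 1 and 8.75% against 4.79% in replicate 2. On X the share was higher than over the rest in replicate 1 (8.96% against 8.49%) and lower in replicate 2 (4% against 5.69%).

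With clusters of every width counted, the 2L window was covered over 16.5% of its length in replicate 1 and 17.6% in replicate 2, against 13.2% and 13.3% over the rest of 2L. The 3L window was covered over 15.9% and 16.5%, against 13.2% and 13.3%. On 3R the cover was 11.7% and 11.4%, against 15% and 15.1%. On X it was 15% and 14.3%, against 14.7% and 13.5%. The replicate values of window and rest did not overlap on 2L, 3L and 3R, and on X the window in replicate 2 lay below the rest in replicate 1.

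At the edges of the rule, the widest member was 5159 bp on X (379680 to 384838), 5853 bp on 2L (920478 to 926330), 5787 bp on 3L (127858 to 133644) and 5665 bp on 3R (26705212 to 26710876). The narrowest clusters left out were 6111 bp on X (1356758 to 1362868), 6065 bp on 2L (539648 to 545712), 6737 bp on 3L (748358 to 755094) and 6267 bp on 3R (27076010 to 27082276). The innermost members were 1416422 to 1418320 on X, 1491160 to 1493016 on 2L, 1495256 to 1497972 on 3L and 26425176 to 26428714 on 3R. The first clusters beyond the inner edge were 1510936 to 1515590 on X, 1501652 to 1505606 on 2L, 1500956 to 1503822 on 3L and 26387840 to 26390444 on 3R. Both innermost clusters on 3L scored alike, 0.87 inside and 0.95 outside, while on 2L the inner one scored 0.20 inside and 1.26 outside.

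Of the 319 members, 177 overlapped clusters of both replicates, or 55.5% (95% exact binomial interval 49.8 to 61). The share was 61% over all clusters of the combined list and 57.7% over all of its clusters under 6000 bp. Over the rest of the 4 arms it was 58.8% (57.4 to 60.2), within the interval of the members. Intervals cover counting error over clusters only. A further 29 members (9.09%) overlapped replicate 1 alone, 58 (18.2%) overlapped replicate 2 alone and 55 (17.2%) overlapped neither. Over the rest of the 4 arms these shares were 10.1%, 15.1% and 16.0%.

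Recurrence was alike on the 4 arms. It was 56.4% on X (44 of 78), 55% on 2L (44 of 80), 54% on 3L (54 of 100) and 57.4% on 3R (35 of 61). Over the rest of the arms it was 57.7% on X, 59% on 2L, 57.4% on 3L and 60.6% on 3R. All 4 windows thus had a share below that of the rest of their arm (differences of -1.31 to -4.02 percentage points). Each of the 4 intervals held the value of the rest. They cover counting error over clusters only and are wide, 44.1 to 70.0 on 3R, so they cannot decide whether the shares differ.

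**Figure D5:**
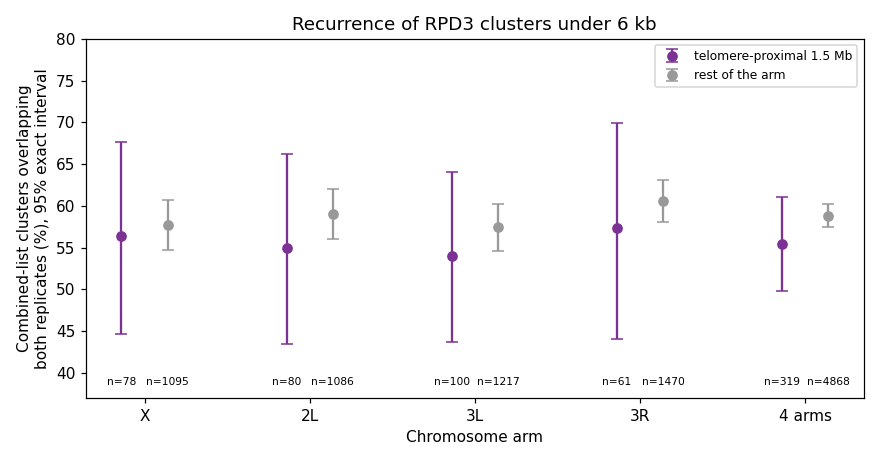
Share of combined-list clusters under 6 kb that overlap both replicates (vertical axis, %) on each arm and over the 4 arms, in the telomere-proximal 1.5 Mb and over the rest of the arm. Bars are 95% exact binomial intervals and n is the number of clusters. The windows lie between 54% and 57.4% and their intervals hold the values of the rest.

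Recurrent members were wider and scored higher than the others. The combined list draws on the same 2 replicates, and a wider cluster meets a 1 bp overlap more easily, so this is a description. The 177 recurrent members had a median score of 0.87 and a median width of 3031 bp. The 55 found in neither replicate had 0.36 and 1191 bp. Of the 319 members, 42 were narrower than 1301 bp, and none of these recurred, nor did any of the 687 such clusters over the rest of the arms. Of the remaining 277 members 63.9% recurred (57.9 to 69.6), against 68.5% over the rest of the arms with the same minimum, which lies within the interval. Among the 31 best-scoring members 30 recurred, and so did 476 of the 486 best-scoring clusters over the rest, in each case the top 10%. The exception among the members was the 2L cluster 770480 to 771486. By width the shares were 4.35% against 13.9% from 1500 to 2000 bp (46 members), 69.7% against 78.8% from 2000 to 3000 bp (119 members) and 93% against 93.6% from 3000 to 4000 bp (57 members), each time members against rest.

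Of the replicates' own clusters in the windows, 85.1% of those in replicate 1 overlapped replicate 2 (194 of 228, 95% exact interval 79.8 to 89.4), against 82.9% over the rest of the arms. In replicate 2, 77.2% overlapped replicate 1 (210 of 272, 71.8 to 82.1), against 81.3% over the rest. Over all clusters under 6000 bp these shares were 82.5% in replicate 1 and 81.4% in replicate 2. The windows were thus above the rest in replicate 1 and below it in replicate 2. The replicate 2 share was lowest on 3L, 73.7% (62.3 to 83.1), against 80.7% over the rest of 3L.

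Where a cluster of each replicate matched 1 to 1 in the windows, their edges differed by about as much as over the rest of the arms. Over 170 such pairs the starts differed by a median of 198.5 bp and the ends by 246 bp, against 211 and 210 bp over 2698 pairs of the rest of the arms. The Spearman rank correlation of their scores was 0.629 over the 170 pairs and 0.655 over the rest. That of their widths was 0.55 over the 170 pairs and 0.598 over the rest. By length, and with clusters of every width counted, 690.5 kb of the windows were covered in both replicates. That was 63.2% of the 1093 kb covered in either, against 63.5% over the rest of the arms.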

How the data were processed

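RPD3 ChIP-seq clusters from 2 ChIP samples and the authors' combined list were analysed. The submitters' processing notes name Bowtie 0.12.7. The caller, its threshold, the read depths and the way the combined list was made were not given in the sources used, and that list was not counted as a replicate. Positions are on FlyBase release 5, per the file headers. The deposited score of each cluster was read as log2 of ChIP over input, since the 5 highest combined scores, as powers of 2, were 9, 10, 11, 12 and 13 times 1 step. The scaling is unknown, so scores were compared only within a list. The 1 region named as depleted was left out.

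Clusters were placed by midpoint and compared with the rest of the same arm (Python 3.11.15, numpy 2.4.6, scipy 1.17.1), with means and SDs over the 2 replicate lists. Functions were tested on simulated lists. No test was run: the exact permutation test that so few samples call for cannot pass a threshold with 2. Named clusters are, per arm, the first from the tip, the 3 best-scoring recurrent ones, the widest, those at the edges of the rule, the longest stretch without members and the fullest and emptiest steps. The 4 members with high scores and no overlap, and the outermost X group, were chosen after their values were seen. The members and lists were chosen with earlier results of these data known. The gene table is of release 6, so genes and sequences were not assigned to clusters.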

Additional observations from a re-analysis of the deposited data

Results flagged for a closer look

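In both replicates the window lay above the rest on some arms and below it on 3R, and these differences were not tested. In clusters per Mb, tip over rest, 2L (mean 1.08) and 3L (mean 1.12) were above 1 in each replicate and 3R (mean 0.703) was below 1 in each, differences of 0.373 for 2L and 0.421 for 3L. In the share of sequence covered by clusters under 6000 bp, X (mean 1.06), 2L (mean 1.16) and 3L (mean 1.15) were above 1 and 3R (mean 0.71) below it, differences of 0.347, 0.452 and 0.439 in that order. The excess in replicate 1 was small on 2L for clusters per Mb (1.01) and on X for the covered share (1.01). The X covered share was 0.991 in the combined list. Without the 2 Mb nearest the centromere, the 2L ratio of clusters per Mb was 0.965 in replicate 1 and 1.09 in replicate 2.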

How the results depend on the processing

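Across 4 arms the density ratio (0.993) moved beyond its replicate SD only with the distal 2 Mb (1.06) and with the distal 0.5 Mb (1.07), a window added after seeing the data. It was 0.951 to 1.04 with each replicate alone. The 3R ratio (0.703) stayed below 1 in all 8 alternatives and in each replicate (0.699 to 0.707). It was 0.72 without the width limit and also among each list's better-scoring 50%, 0.712 without the 2 Mb nearest the centromere, 0.71 by covered bp, 0.73 in the combined list, 0.832 with the distal 1 Mb, 0.757 with 2 Mb and 0.977 with 0.5 Mb, where it was 0.908 in replicate 1 and 1.05 in replicate 2. The X ratio (1.07) was 0.934 with 1 Mb, 0.692 with 0.5 Mb and 1.19 in the better-scoring 50%. The 2L ratio was 1.36 with 0.5 Mb. The 3L ratio (1.12) was 1.22 with 1 Mb, 1.3 with 2 Mb, 1.25 with 0.5 Mb, 1.05 without the 2 Mb nearest the centromere and 1.26 in the combined list. With each replicate alone it was 0.999 to 1.14 for X, 1.01 to 1.14 for 2L and 1.09 to 1.16 for 3L. Differences in median score (0.01) and median width (35.2 bp) moved by less than the SD of the reported value in all 7 and 8 alternatives, at -0.03 to 0.05 and -38.8 to 109.2 bp with each replicate alone. Both replicates were positive for score without the width limit (0.06 and 0.02) and for width in the better-scoring 50% (140.9 and 67 bp, mean 103.9 bp). The share in both replicates, 55.5%, was 95.9% in the better-scoring 50% (96.7% over the rest) and 63.9% with a minimum of 1301 bp. It was 64.6% to 73.7% when a single replicate had to be met, a looser rule by construction. For the other moves the cause was not tested. No paired analysis was possible because of ChIP and input, which share replicate numbers, only ChIP has lists. Window and rest were compared within each replicate throughout. Read depth is unknown, so its limits cannot be given.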
